A study of Mus musculus with 8 samples.

Results

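Sox10, Egr2, S100b, Prx, Pmp22 and Mbp are genes used to recognise Schwann cells, the glia of peripheral nerves, and the myelin that these cells make. They were taken from the deposited table as the rows whose gene symbol is one of the 6 names, and all 6 were found among its 23420 named genes. The study compared 2 tissues of wild type C57BL/6J mice, 8 weeks old and without any treatment: the corneal button, which is the cornea inside the limbus, and the limbal rim, the ring of tissue that joins the cornea to the sclera. Tissue from several eyes was pooled before RNA was extracted, and total RNA libraries were sequenced. The labels list 8 samples, 4 per tissue, numbered in the way sequencing lanes are, but the table was built from 1 library per tissue, with 26104317 reads on named genes in the cornea and 21182025 in the limbus. There was thus no spread between replicates and no test between the tissues, and each ratio of a member is given with the exact 95% confidence interval that its read numbers allow, which covers counting error only, as are most ratios of other genes. In whole pieces of tissue, fewer cells of a type and less RNA per cell cannot be told apart. The epithelial genes went with the labels: Krt12, the keratin of corneal epithelium, had a log2 ratio of limbus over cornea of -2.19, and Krt15, a keratin of the limbal basal layer, of 3.32. The read numbers behind these 2 ratios were chosen with the authors' own comparison of the tissues, so they are no separate check of the labels.

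Schwann cells wrap the axons of peripheral nerves. Some wrap 1 axon each and lay down myelin, and others hold bundles of thin axons without myelin. Sox10 is the transcription factor that all cells of this lineage need from the neural crest onwards, and together with Sox10 the zinc finger factor Egr2, also called Krox20, switches on the genes of myelin. Compact myelin holds the proteins Mbp, which binds the inner faces of the membrane, and Pmp22, which spans it, while Prx, or periaxin, ties the outer Schwann cell membrane to the basal lamina, and S100b is a calcium-binding protein long used to stain Schwann cells. The nerves of the cornea enter through the limbus, lose their myelin soon after they enter the stroma and run on as bare axons with non-myelinating Schwann cells. None of the 6 genes is expressed in Schwann cells alone: Sox10 and S100b are also known from melanocytes, Mbp from oligodendrocytes, Egr2 from immune cells and fibroblasts, Prx from lens fibres, and Pmp22 from fibroblasts and epithelia.

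RefSeq promoter windows on GRCm38.p6 were taken for 4 of the 6 genes, with 11 annotated starts. Mbp was left out of this search, and no window was available for Sox10. The 250 bases before 5 of these starts, none of which overlap an annotated exon, are shown because they put the members side by side by CpG content. Capitals mark each CpG, and all 5 sequences read 5′ to 3′ on the plus strand. They are the windows of Prx at chr7:27499074-27499323, of S100b at chr10:76253586-76253835, of Pmp22 before its most upstream start at chr11:63128732-63128981 and before a further start at chr11:63132319-63132568, and of Egr2 at chr10:67537619-67537868.
Prx: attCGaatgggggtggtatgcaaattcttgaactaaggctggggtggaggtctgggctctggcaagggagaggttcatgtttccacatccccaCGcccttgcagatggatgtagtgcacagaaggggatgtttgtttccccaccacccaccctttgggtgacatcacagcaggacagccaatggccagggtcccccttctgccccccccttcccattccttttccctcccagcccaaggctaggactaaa
S100b: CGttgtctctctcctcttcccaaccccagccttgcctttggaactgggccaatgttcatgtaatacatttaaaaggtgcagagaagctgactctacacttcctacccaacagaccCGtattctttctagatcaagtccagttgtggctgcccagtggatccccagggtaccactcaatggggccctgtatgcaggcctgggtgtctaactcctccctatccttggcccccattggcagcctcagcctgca
Pmp22, upstream start: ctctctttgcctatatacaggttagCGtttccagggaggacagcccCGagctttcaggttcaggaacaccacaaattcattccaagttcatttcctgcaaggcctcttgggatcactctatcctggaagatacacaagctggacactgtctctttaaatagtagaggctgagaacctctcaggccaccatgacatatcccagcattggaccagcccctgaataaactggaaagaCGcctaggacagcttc
Pmp22, downstream start: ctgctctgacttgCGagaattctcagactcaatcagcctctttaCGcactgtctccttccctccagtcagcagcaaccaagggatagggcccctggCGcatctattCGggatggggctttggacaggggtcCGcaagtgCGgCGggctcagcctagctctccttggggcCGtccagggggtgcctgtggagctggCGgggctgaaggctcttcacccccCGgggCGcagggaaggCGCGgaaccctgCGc
Egr2: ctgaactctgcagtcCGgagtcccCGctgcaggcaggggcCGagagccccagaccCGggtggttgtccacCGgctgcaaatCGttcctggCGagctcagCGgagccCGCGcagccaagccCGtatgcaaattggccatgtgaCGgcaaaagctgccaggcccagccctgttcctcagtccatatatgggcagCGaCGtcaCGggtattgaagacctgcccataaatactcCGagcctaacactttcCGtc

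The windows of Prx and S100b held 2 CpGs each, fewer than the median of 6 over 32851 windows of the same length, and 18.8% of all windows held fewer. The upstream window of Pmp22 held 3, and the downstream one held 14. The window of Egr2 shown held 17, and 76.5% of all windows held fewer. The core letters of SOX sites, ACAAAG or ACAATG on either strand, were not in any of the 11 member windows, while 16.46% and 10.69% of all windows held them. Some windows of Egr2 and of Pmp22 overlap each other, so the 11 are not separate sequences and are too few to show a lack of such sites. Of the core letters of EGR sites, GCGTGGG was in the window of Prx on the minus strand, 161 bases before the start, and in 4.3% of all windows. GCGGGGG was 63 bases before the most upstream start of Egr2, which is not shown, and in 9.63% of all windows. Nothing about binding was measured here.

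All 6 genes had more normalised reads in the limbus than in the cornea, by 1.35-fold for Mbp to 61.4-fold for Sox10, and no interval of a ratio reached equality. A normalised read is a read divided by the size factor of its library. A limit of 2-fold was met by 4 of the 6 genes, Sox10, S100b, Egr2 and Prx, and was not met by Pmp22 and Mbp. Over the 15572 genes with more than 3 reads in a library, with lower numbers set to 3 reads, 20.8% met it. Genes with 3 corneal reads or fewer, Sox10 among them, were in that set only through the limbus. Among the 13862 genes that passed 3 reads in each library, 15.5% were at least 2-fold higher in the limbus and 8.99% at least 2-fold higher in the cornea, and of the 5 members in that range, all but Sox10, there were 3 and 0.

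**Figure D1:**
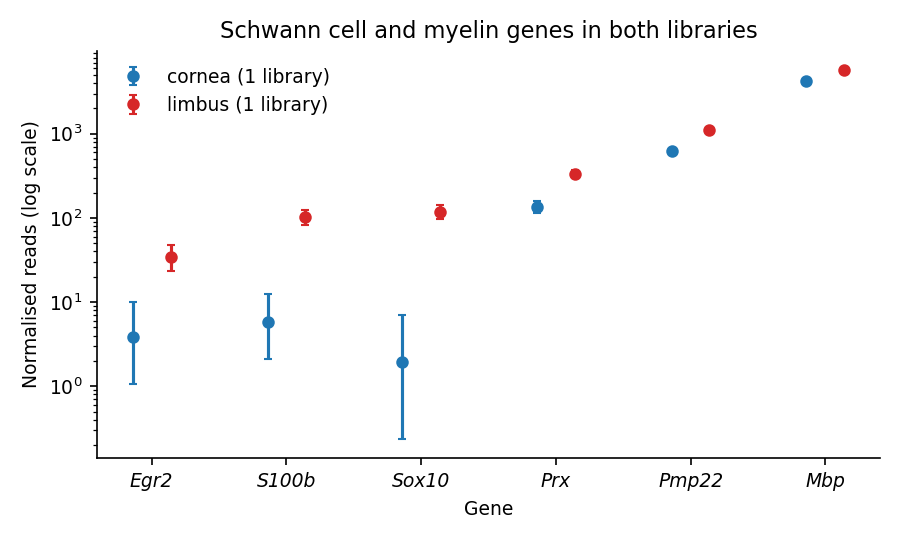
Normalised reads (log axis) of the 6 genes in the cornea and limbus libraries, 1 library each, with exact 95% counting intervals as bars. The limbal point lies above the corneal point for each gene, and the gap narrows from Sox10, at 1.93 and 118.9, to Mbp, at 4193 and 5680.

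Sox10 had 2 corneal and 115 limbal reads, which is 1.93 and 118.9 normalised reads. Its log2 ratio was 5.94 (95% interval 4.06 to 9.004). With the cornea set to 3 reads, the log2 ratio was 5.36, higher than that of 99.3% of the 15572 genes described above. Sox10 was among those genes only through its limbal reads and could not have been found on the corneal side. Its rank is therefore no separate support for its ratio. The mean in the table allowed a second pair of read numbers for Sox10, and its direction rests on the choice between them. The gene lies on the minus strand of chromosome 15, from 79154908 to 79165240 in GRCm38, and no other annotated gene overlaps it.

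Egr2 had the fewest limbal reads of the 6, with 4 corneal and 33 limbal reads, or 3.87 and 34.1 normalised reads. The log2 ratio was 3.14 (1.65 to 5.10), an 8.82-fold difference. Only 1 pair of read numbers was possible. Egr2 lies on chromosome 10, from 67535475 to 67542188 on the plus strand. It is also an immediate early gene, one that many cells switch on within minutes of a stimulus, and its relative Egr1 had 800 and 2141 reads, a log2 ratio of 1.52 (1.398 to 1.63). Egr3 had 1 and 4 reads, and Egr4 is listed at 0. Of 8 immediate early genes that passed 3 reads in each library, 5 were at least 2-fold higher in the limbus, against 15.5% of all genes in that range. Among the 5 were Nr4a1 at 3.98 (2.95 to 5.22) and Atf3 at 3.03 (2.41 to 3.71), while Fos stood at -0.31 (-0.41 to -0.21). The summed level of the 9 genes on that list was 11034 corneal and 16775 limbal normalised reads, and none was at 0 in either library. Their part in the ratio of Egr2 was not tested.

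S100b had 6 corneal and 99 limbal reads, or 5.80 and 102.3 normalised reads. The log2 ratio was 4.14 (2.97 to 5.62), which is 17.6-fold, and the table allowed no other pair of read numbers. S100a1, a related calcium-binding gene of many tissues, had 633 and 741 reads, for a log2 ratio of 0.32 (0.17 to 0.48). S100b lies on the plus strand of chromosome 10, from 76253853 to 76261159, and overlaps Dip2a on the opposite strand without a shared exon base.

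The intervals of Sox10, S100b and Egr2 overlapped, so that their order by ratio could not be told at this depth. The interval of Egr2 lay above that of Prx, that of Prx above that of Pmp22, and that of Pmp22 above that of Mbp.

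**Figure D2:**
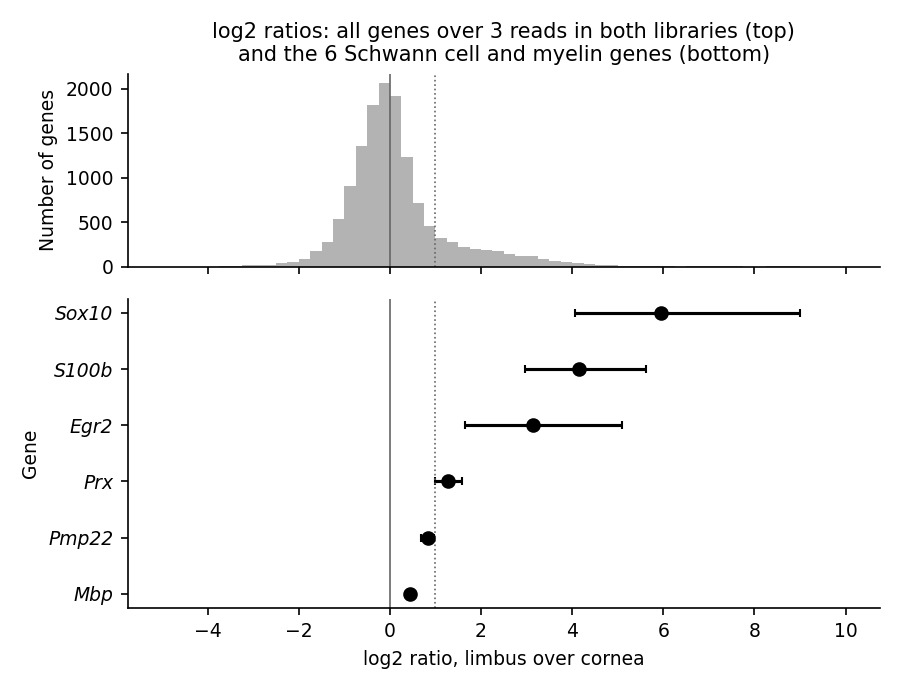
Top, number of genes by log2 ratio of limbus over cornea for the 13862 genes that passed 3 reads in each library. Bottom, log2 ratios of the 6 genes with exact 95% counting intervals, the solid line at equality and the dotted line at 2-fold. S100b and Egr2 lie at 4.14 and 3.14, out in the tail of the distribution, and Mbp at 0.44. Sox10 lies at 5.94 and, with 2 corneal reads, is not among the genes of the top panel.

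Prx had 141 corneal and 321 limbal reads, which is 136.4 and 331.8 normalised reads. The log2 ratio was 1.28 (0.99 to 1.58), so that its interval reached just below the 2-fold limit. As for Sox10, the direction rests on the choice among the read pairs that the mean allows, 5 for Prx. Prx lies on chromosome 7, from 27499324 to 27520214 on the plus strand, and shares 300 exon bases with Gm15541, an antisense gene. The sources used here do not say whether counting used strand, so the reads of these 2 genes cannot be told apart. Ahnak, a large scaffold gene related to Prx, had a log2 ratio of -0.13 (-0.15 to -0.11).

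Among the partners of Prx at the outer Schwann cell membrane, Drp2, which binds periaxin, had 13 corneal and 225 limbal reads, for a log2 ratio of 4.21 (3.41 to 5.14). Dag1, the dystroglycan that links both to the basal lamina and is made by many cells, had 4418 and 4358 reads, for a log2 ratio of 0.08 (0.02 to 0.14). Lama2, a laminin chain of that basal lamina and of muscle, stood at 1.12 (0.88 to 1.36), and Adgrg6, a receptor needed for myelination that the table lists as Gpr126, at 1.17 (0.85 to 1.49). The interval of Drp2 thus lay above that of Prx itself, and those of Lama2 and Adgrg6 overlapped it.

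Pmp22 had 636 corneal and 1058 limbal reads, or 615 and 1094 normalised reads. The log2 ratio was 0.83 (0.69 to 0.97), a 1.78-fold difference, and its interval ended just below the 2-fold limit. The mean allowed 16 read pairs, on whose choice the direction rests. Scaled to total reads instead of size factors it was 1.04, past the limit. Pmp22 lies on chromosome 11, from 63128982 to 63159547 on the plus strand, with 5 annotated transcripts that the table does not separate. Its family members in other tissues differed in direction: Emp1, an abundant gene of squamous epithelia, had 304486 and 187365 reads, for a log2 ratio of -0.60 (-0.61 to -0.60), Emp2 was at 0.35 (0.32 to 0.38), and Emp3 had 147 and 354 reads, for a log2 ratio of 1.36 (1.08 to 1.65).

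Mbp was the most abundant of the 6, with 4334 corneal and 5495 limbal reads, or 4193 and 5680 normalised reads. Its log2 ratio of 0.44 (0.38 to 0.50) was the lowest of the 6, and its direction too rests on the choice among read pairs, 93 for this gene. Mbp made up 84.6% of the summed normalised reads of the members in the cornea and 77.2% in the limbus. The gene lies on chromosome 18, from 82475146 to 82585637 on the plus strand. The annotation gives it 16 transcripts, and the locus is known to make, besides the myelin proteins, the Golli proteins of the immune system and other cells. The table gives 1 value for the whole gene, so which product the reads come from was not measured.

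Levels of different genes were compared as normalised reads per kilobase of annotated exon. In the limbus the order was Mbp at 671, Pmp22 at 465, S100b at 69.0, Prx at 59.5, Sox10 at 39.0 and Egr2 at 10.04 per kilobase. The intervals of S100b and Prx overlapped there, and those of the other neighbours did not. In the cornea the order was Mbp at 495, Pmp22 at 261, Prx at 24.4, S100b at 3.91, Egr2 at 1.14 and Sox10 at 0.634 per kilobase, and the intervals of S100b, Egr2 and Sox10 overlapped. Prx and S100b thus stood close together in the limbus and well apart in the cornea. As a difference of levels, limbus minus cornea, Pmp22 came to 203 per kilobase, Mbp to 176, S100b to 65.1, Sox10 to 38.3, Prx to 35.0 and Egr2 to 8.90. The 2 genes with the lowest ratios therefore had the greatest differences in level.

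**Figure D3:**
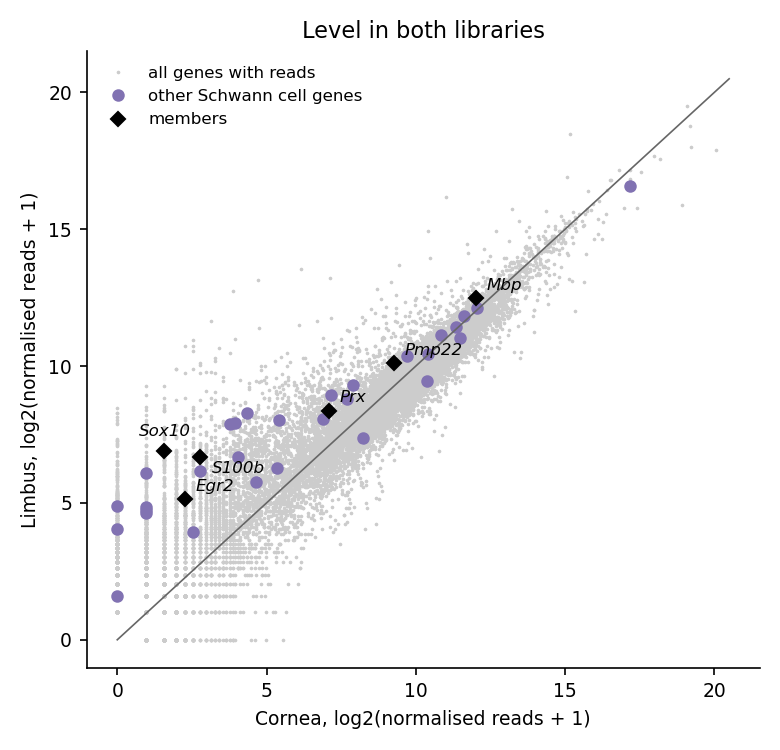
Level in the limbus against level in the cornea, both as log2 of normalised reads plus 1, for all genes with reads (grey), the other Schwann cell genes (purple) and the members (black diamonds); the line marks equality. Sox10, S100b and Egr2 lie far above the line at the left, with 2, 6 and 4 corneal reads, and Pmp22 and Mbp lie close to it.

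A list of 31 other genes of Schwann cells and myelin was examined beside the members. Pou3f2 is listed at 0, Ugt8a had 3 reads or fewer in both libraries, and 29 genes were left. Over the 23 of them that passed 3 reads in each library, 12 were at least 2-fold higher in the limbus, against 15.5% of all genes in that range, and 0 were at least 2-fold higher in the cornea. The other 6 (Foxd3, Pou3f1, Fa2h, Mag, Gjb1 and Cldn19) had 0 or 1 corneal reads and passed the limit on reads only through the limbus, where they had 15 to 65, so they could not have been found on the corneal side. Of the 23, counting error left 18 higher in the limbus, 4 higher in the cornea (Nab1, Mal, Nrg1 and Ngfr) and 1, Cadm4, on neither side. Where the mean allowed more than 1 read pair for a listed gene, its direction may also rest on the choice made with the deposited fold change. The intervals do not cover that choice. The 23 genes had a median log2 ratio of 1.12, against -0.05 for the 13862 genes in the same range. The values depend on the filter: when means under 50 normalised reads were left out, 9 of 20 were at least 2-fold higher in the limbus and the median was 0.79, against 11.9% and -0.10 over all genes of that level.

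The genes of lineage and transcription were divided. Foxd3, a factor of neural crest and early glia, had 0 corneal and 28 limbal reads, and the exact interval of its log2 ratio began at 2.92. Pou3f1, or Oct6, which acts before Egr2 in the myelinating cell, had 0 and 15 reads, with an interval that began at 1.94. Zeb2, which is needed for Schwann cells to mature, had 43 and 251 reads, for a log2 ratio of 2.64 (2.17 to 3.14). The Egr partners Nab1 and Nab2, which are made in many tissues, stood at -0.46 (-0.54 to -0.37) and 0.63 (0.51 to 0.76).

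Of the genes of compact myelin and its lipids, Fa2h, which hydroxylates the fatty acids of myelin lipids, had 1 and 23 reads, a log2 ratio of 4.62 (1.997 to 9.98). Mal went the other way, with 153253 corneal and 95037 limbal reads, for a log2 ratio of -0.59 (-0.61 to -0.58). It is also an apical sorting protein of epithelia, and it made up most of the list's summed level, 167749 corneal and 120552 limbal normalised reads.

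Of the 4 genes of non-compact myelin and nodes that passed 3 reads in each library, 3 were at least 2-fold higher in the limbus, and the remaining genes of that role had 1 corneal read each. Cldn19, a claudin of the Schwann cell's own tight junctions, had 1 and 65 reads, for a log2 ratio of 6.12 (3.59 to 11.4). Mag, the adhesion protein that faces the axon, had 1 and 25 reads, for a log2 ratio of 4.74 (2.13 to 10.099). Gjb1, the connexin of myelin channels, had 1 and 27 reads, for a log2 ratio of 4.85 (2.25 to 10.2). Nfasc and Gldn, which build the nodes of Ranvier, stood at 2.71 (1.94 to 3.57) and 1.15 (0.44 to 1.90), and Cnp, an enzyme of myelin cytoplasm, at 1.41 (1.19 to 1.63). Cadm4 had 1403 and 1362 reads, for a log2 ratio of 0.05 (-0.06 to 0.16).

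Among the genes of axonal signals, the neuregulin receptors Erbb3 and Erbb2, which are also made by epithelia, had log2 ratios of 0.08 (0.01 to 0.16) and 0.21 (0.15 to 0.28). Their ligand Nrg1 had 310 corneal and 161 limbal reads, for a log2 ratio of -0.85 (-1.13 to -0.57). Lgi4, a protein that Schwann cells secrete, had 20 and 305 reads, for a log2 ratio of 4.03 (3.37 to 4.76).

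Genes of immature and non-myelinating Schwann cells did not share 1 direction. Scn7a, a sodium channel of non-myelinating cells, had 15 and 235 reads, for a log2 ratio of 4.07 (3.31 to 4.93). Cdh19, a cadherin of the lineage, had 6 and 68 reads, for a log2 ratio of 3.598 (2.402 to 5.09). Ncam1 stood at 1.78 (1.51 to 2.06), Gfap, with 5 and 14 reads, at 1.58 (0.03 to 3.41), Gap43 at 0.95 (0.38 to 1.54) and L1cam at 0.31 (0.22 to 0.40). Ngfr, the low-affinity neurotrophin receptor, which epithelial cells make too, had 1375 corneal and 671 limbal reads, for a log2 ratio of -0.94 (-1.07 to -0.81).

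**Figure D4:**
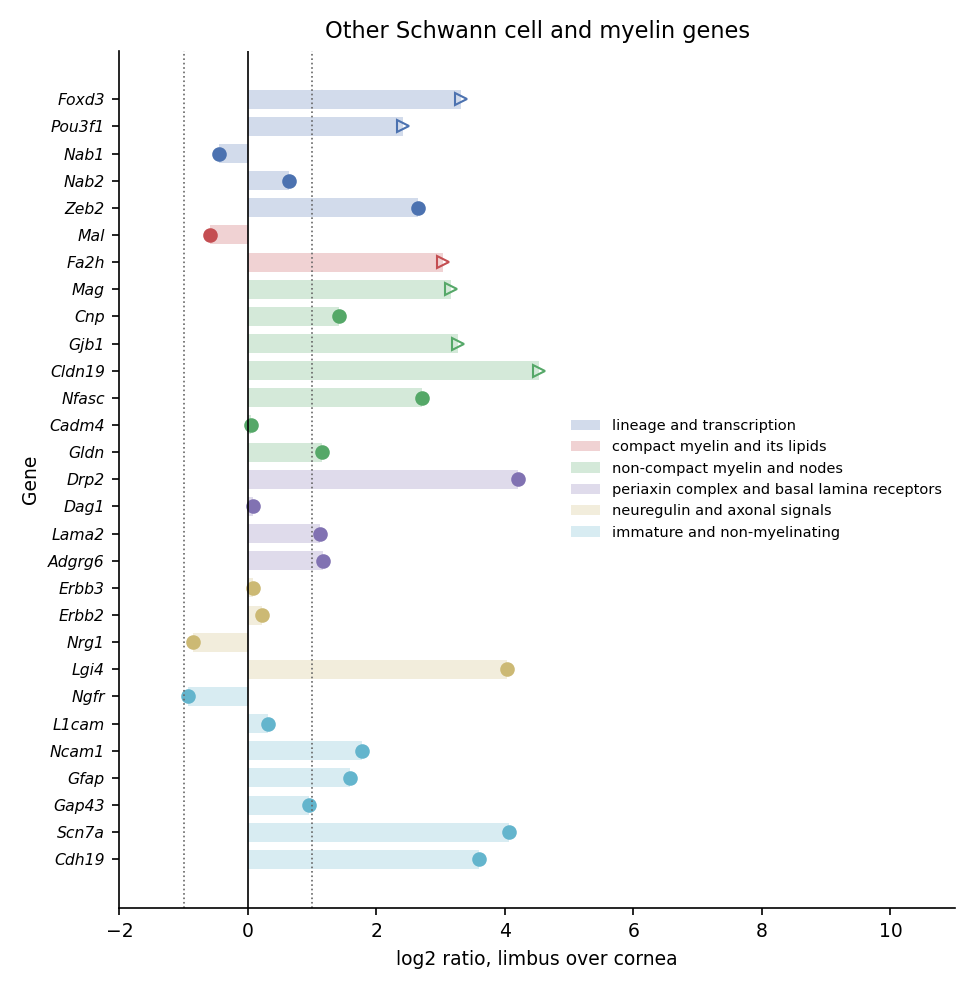
log2 ratios of limbus over cornea for the 29 other Schwann cell and myelin genes, coloured by role; open triangles are genes with fewer than 3 reads in the cornea, set to 3 reads, and dotted lines mark 2-fold in either direction. Cldn19 reaches 4.53 with its corneal reads set to 3, and no gene passes the left-hand line. Genes past the right-hand line come from each of the 6 roles, but for compact myelin and its lipids only Fa2h does, with 1 corneal read. The genes shown as open triangles passed the limit on reads only through the limbus.

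Genes of other cells that are known to express some of the members were examined as well. Of 5 oligodendrocyte genes, which would mark central myelin such as that of the optic nerve, 0 had more than 3 reads in either library: Mobp is listed at 0, Mog had 1 and 2 reads, and Opalin, Olig1 and Olig2 had 0 in the cornea and 1 in the limbus. Their summed level was 0.967 and 5.17 normalised reads. The part of such cells in the Mbp reads was not tested further.

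Of 10 melanocyte genes, which bear on Sox10 and S100b, 7 passed 3 reads in each library and 5 of these were at least 2-fold higher in the limbus. Over all genes in that range the share was 15.5%. Mlana had 7 and 132 reads, a log2 ratio of 4.33 (3.25 to 5.68), Dct had 183 and 710 reads, at 2.05 (1.82 to 2.29), and Kit, with 5165 and 2491 reads, stood at -0.96 (-1.03 to -0.89). Only Gpr143 was at 0 in the cornea, none was at 0 in the limbus, and the summed level was 5333 corneal and 4305 limbal normalised reads, most of it from Kit. Sox9 and Sox8, the closest relatives of Sox10, had log2 ratios of 0.89 (0.69 to 1.10) and 1.68 (-0.32 to 4.20), the latter from 3 and 9 reads. The part of melanocytes in the ratios of Sox10 and S100b was not tested.

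Of 6 lens fibre genes, which bear on Prx, 5 passed 3 reads in each library and 4 of these were at least 2-fold higher in the limbus, with Cryaa at 468 and 5423 reads and none at 0. Their summed level was 893 and 7498 normalised reads. Leukocyte genes, which bear on Egr2 and Mbp, were at least 2-fold higher in the limbus for 3 of the 5 that passed 3 reads in each library. None was at 0, and the summed levels were 6319 and 10438 normalised reads, most of them from Itgam, at 5807 and 9090. Fibroblast and keratocyte genes, which bear on Pmp22, were at least 2-fold higher in the limbus for 2 of 7 and in the cornea for 1, Kera at -2.99 (-3.07 to -2.92), with summed levels of 77763 and 118133 and none at 0. Epithelial genes, which also bear on Pmp22, were at least 2-fold higher in the limbus for 3 of 7 and in the cornea for 2, Krt12 and Aldh3a1, with summed levels of 2.37e+06 and 1.42e+06 normalised reads and none at 0. The part of these cells was not tested.

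Genes of other tissues that lie around the limbus also had more reads in the limbal library. Of 6 skeletal muscle genes, 5 passed 3 reads in each library and all 5 were at least 2-fold higher there, with summed levels of 77.4 and 10290 normalised reads and Des at 0 in the cornea. Of 4 endothelial genes in that range 3 were, with summed levels of 234 and 2880 and none at 0. Over all genes in that range the share was 15.5%. Of 12 genes of neurons and axons, 2 passed 3 reads in each library, Uchl1 at 2.60 (1.70 to 3.62) and Snap25 at 2.28 (1.39 to 3.27), and the 12 genes had summed levels of 36.8 and 399 normalised reads. Nefm, a neurofilament of thick axons, had 0 corneal and 152 limbal reads, and the exact interval of its log2 ratio began at 5.44. Prph, Calca, Scn10a and Trpv1 were at 0 in the cornea as well, with 1 to 5 reads in the limbus. Whether the limbal Schwann cell reads come from nerves within the limbus or from tissue attached to the rim was not tested.

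**Figure D5:**
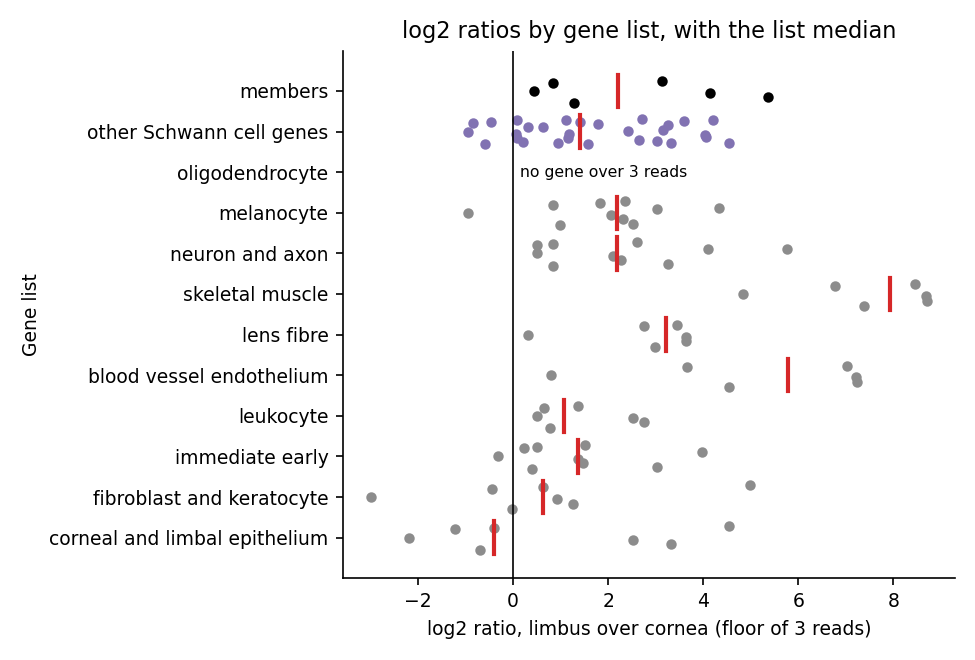
log2 ratios of limbus over cornea by gene list, 1 point per gene with more than 3 reads in a library and red bars at the list medians; read numbers under 3 were set to 3. Genes with few corneal reads could pass only through the limbus; the members have a median of 2.21, the other Schwann cell genes range from -0.94 to 4.53, skeletal muscle genes reach 8.71, and no oligodendrocyte gene is over 3 reads.

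Of the genes over 3 reads in both libraries, the 3 nearest to Sox10 in log2 normalised reads were Fam20a with 4 and 119 reads, Tnfrsf1b with 4 and 103, and Sema4g with 4 and 99. They lay 1.001, 1.01 and 1.02 away on the log2 scale, over 2 libraries only. Sox10 itself had fewer corneal reads than the range searched allowed. Most of each distance was therefore set by that range, and genes with as few corneal reads as Sox10 were not searched.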

How the data were processed

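RNA of pooled corneal buttons and limbal rims of wild type mice was sequenced from stranded total RNA libraries. The authors used CLC Genomics Workbench to trim and to map to mouse build GRCm38 (mm10), and their methods name the trimmed mean of M-values for normalization. They deposited 1 table of the comparison. The mean column that the authors deposited is a signal, the average over both libraries of reads scaled by size factors. The authors deposited log2 fold changes with standard errors, and p-values and adjusted p-values, which are not reported here. No per-sample value of a numbered sample was used, and 0 columns belonged to other samples.

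Of 40904 rows, 23420 name a gene and 17484 do not and were left out. Of the named genes, 5978 are listed at 0. Each remaining mean was found to be a whole number of cornea and limbus reads weighted by 102 and 109 (size factors 1.033744 and 0.967357), to within 0.0101 of a whole number over all genes and 7.97e-05 over the members. A single pair of read numbers was possible from the mean for 6143 genes, and more than 1 pair for 11299. For the latter the pair closest to the deposited log2 fold change and standard error was taken, under a shrinkage model. The mean does not tell which library is the cornea. That was read from the deposited comparison, taken as cornea against limbus, for genes with 1 pair as well. These columns served for nothing else. The distance was within 1 read for 11298 genes (median 0.000576 reads, largest 1.93), where rival pairs lie 109 cornea reads apart. For 173 genes a second pair also came within 1 read, and 0 members and 0 listed genes were among them. In data simulated under the same shrinkage model and size factors, all 17091 genes had their reads found exactly. This checks the calculation only, and cannot show that the deposited values came from that model. The read numbers are therefore derived values and not a count table. For Mbp the mean allowed 93 pairs, for Pmp22 16, for Prx 5, for Sox10 2, and for S100b and Egr2 1.

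Ratios are limbus over cornea, with 95% intervals from the exact Clopper-Pearson limits of each gene's limbal read share. For ratios that include genes with few reads, 3 reads were put in place of any lower number, and no fold was given where neither library had more. A gene was called at 2-fold, since 1 library per tissue gives no test. Exon lengths and positions are from the GENCODE annotation of GRCm38, which may differ from the annotation used for counting. Gene names were matched by symbol, with 2 older symbols taken from RefSeq synonyms. The text names the 6 members, genes of fixed lists, and the 3 genes nearest to Sox10; Dip2a and Gm15541 were named as overlapping genes. Members and lists were chosen with earlier results of these data known. The values of 2 listed genes are not reported here and were left out of the list counts. Alternatives were scaling to total reads, a trimmed mean of M-values (trimming 30% of log ratios and 5% of mean values), a pseudocount of 1, means of at least 10 or 50, genes over 3 reads in both libraries (added after seeing the data), and the pairs that the mean alone allows. Calculations used Python 3.11.15, numpy 2.4.6, scipy 1.17.1 and pandas 2.3.3.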

Additional observations from a re-analysis of the deposited data

How the results depend on the processing

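Of 52 alternative values for 10 results, 40 kept their direction and stayed near the main value. For ratios this meant within the counting interval, and for counts within 1.5 times the count. For the median of the other Schwann cell genes, 1.17 in place of 1.41 was taken as kept, and 1.12 and 0.79 as moved. The single read pairs of Egr2 and S100b are among the 40 and are the main value by construction. Scaling to total reads added 0.21 to every log2 ratio, which moved Mbp to 0.64 and Pmp22 to 1.04, and the trimmed mean of M-values added 0.02. The members at least 2-fold higher in the limbus numbered 4, or 5 with total reads and 3 of those with a mean of at least 50. With that filter, which leaves 20 of the other Schwann cell genes, 9 were at least 2-fold higher and the median was 0.79, with fewer genes by construction. If the read pair is not chosen with the deposited fold change, the mean alone allows a range of log2 ratios, with read numbers under 3 set to 3. The range runs from -2.998 to 5.36 for Sox10 and from -6.73 to 6.93 for Mbp. For Pmp22 it runs from -5.41 to 4.20, and for Prx from -4.87 to 3.82. The directions of these genes thus rest on that choice, while Egr2 and S100b allow 1 pair of read numbers. For all genes, Egr2 and S100b included, the direction also rests on reading the deposited comparison as cornea against limbus. Such ranges were not worked out for the genes of the other lists. Over genes past 3 reads in both libraries, a limit added after seeing the data, 12 of 23 other Schwann cell genes were at least 2-fold higher in place of 18 of 29, and the median was 1.12 in place of 1.41. No paired analysis was possible because no numbered sample has its own value in the table, and leaving out a sample was not run for the same reason. With 2 to 6 corneal reads, the depth limits the sizes of the Sox10, Egr2 and S100b ratios to the intervals given.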
